A study of Homo sapiens with 6 samples.

Results

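The human mitochondrial genome carries 37 genes, all of which were listed in the 6 RNA-seq libraries of this series. The members were chosen as every gene on the mitochondrial chromosome with a symbol starting with MT-, which gave 37 of 58735 genes. They comprise 13 mRNAs, 2 rRNAs and 22 tRNAs, with 28 genes on the plus strand of the reference and 9 on the minus strand (MT-ND6 and 8 tRNAs). They were measured in SK-N-AS, an established line of human neuroblastoma cells. The siPrp19 group received a small interfering RNA (siRNA) directed at Prp19, and the NC group received a negative control siRNA. Prp19, the product of *PRPF19*, acts in the splicing of nuclear pre-mRNAs. According to the labels the transfection lasted 72 h in both groups, a longer time than in the study's methods. All libraries came from this 1 cell line, and the study calls them biological replicates without saying whether they came from separate cultures, so the p-values measure the spread between these samples.

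Mitochondrial DNA is a compact circle without introns that is transcribed from both strands into long precursors. In most places a tRNA lies between neighbouring mRNAs or rRNAs, and the precursor is cleaved at the ends of the tRNAs to release the transcripts. The mRNAs encode subunits of respiratory complexes I, III and IV and of ATP synthase, the rRNAs build the mitochondrial ribosome, and the polymerase, processing enzymes and translation factors are made from nuclear genes. Mitochondrial mRNAs carry no introns, so they are not substrates of the nuclear spliceosome to which Prp19 belongs.

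The libraries are named here by the header of their value column (NCa, NCb, NCc, siPrp19a, siPrp19b, siPrp19c), because for 4 of the 6 (NCb, NCc, siPrp19a and siPrp19b) the header describes another sample than the recorded one. For 2 of these 4 the groups are opposite as well. The column headed NCb is recorded under a siPrp19 sample, and the column headed siPrp19b is recorded under an NC sample. *PRPF19*, the targeted gene (chr11:60890730-60906588, minus strand, GRCh38), was at 83.0 FPKM in NCa, 83.1 in NCb and 93.0 in NCc. It was at 19.7 FPKM in siPrp19a, 19.1 in siPrp19b and 18.5 in siPrp19c, so its level followed the headers in every library and went against the record of NCb and of siPrp19b. FPKM counts fragments for each kilobase of exon, relative to a size set for each library. Each comparison was therefore made by header (3 libraries against 3), in the 4 libraries whose header and record agree on the group, though for NCc and siPrp19a not on the replicate number (NCa and NCc against siPrp19a and siPrp19c), and as recorded (3 against 3). With limma, *PRPF19* was lower in siPrp19 by a log2 fold change of -2.12 ± 0.07 (SE) by header (adjusted p = 0.000215) and of -2.15 ± 0.14 in the 4 libraries (adjusted p = 0.0266). As recorded, the log2 fold change was -0.74 ± 0.73 and did not pass the threshold.

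Between 14887132 and 19977811 reads were recovered per library. These totals were 1.01, 1.01 and 1.04 times the size that the FPKM used in NCa, NCb and NCc. In siPrp19a, siPrp19b and siPrp19c they were 0.989, 0.961 and 0.951 times that size. The same share of reads thus gave a lower FPKM in the siPrp19 libraries. Of the reads, 767165 to 1295393 per library lay on mitochondrial genes. Library siPrp19a stood apart from the other 5 on these genes, so the fits and ratios are also given without it, for most mRNAs as a median and in the plot of fitted changes. Over the mitochondrial genes, the chi-square per degree of freedom between libraries was 3.68 for NCa against NCb and 24.2 for siPrp19b against siPrp19c. It was between 86.1 and 819 for the other pairs, so no pair was within sampling noise (a value near 1). NCc differed as well, at 231 from NCa and 225 from NCb, against 86.1 to 176 between those and siPrp19b or siPrp19c. Over all genes the value was 1.72 for NCa against NCb, 2.59 for siPrp19b against siPrp19c and 18.0 to 46.7 for the other pairs. NCa and NCb, and likewise siPrp19b and siPrp19c, were thus closer than other pairs within a group. Whether these libraries are independent samples is not given. Transcripts of the noradrenergic neuroblastoma regulator *HAND2* (117 to 170 FPKM) and of the mesenchymal marker *VIM* (99.4 to 162 FPKM) were present in every library, whereas *TH* stayed at or under 0.662 FPKM. Among markers of other cell types, *EPCAM* and *CDH1* stayed at or under 0.176 FPKM and *CD3E* and *HBB* were at 0, while *KRT18* (37.6 to 51.6 FPKM) and *PTPRC* (16.9 to 30.7 FPKM) were expressed.

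The members sit so close together that some share bases, which bears on how reads can be assigned to them. The overlap of the genes for the ATP synthase subunits MT-ATP8 and MT-ATP6 spans 46 bases (chrM:8527-8572), and that of the complex I subunits MT-ND4L and MT-ND4 spans 7 bases (chrM:10760-10766). Both are printed here on the plus strand from GENCODE 29 transcripts (GRCh38), with the shared bases in capitals, from chrM:8513-8586 and chrM:10747-10779. Each overlap opens with the start codon of the downstream gene and closes at the stop codon of the upstream gene.
MT-ATP8 and MT-ATP6 overlap: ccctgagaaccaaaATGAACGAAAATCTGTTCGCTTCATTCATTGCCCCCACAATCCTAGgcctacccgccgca
MT-ND4L and MT-ND4 overlap: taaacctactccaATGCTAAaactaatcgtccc

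Of the 13 annotated mRNAs, 6 had a length that is not a multiple of 3 (MT-ND1, MT-ND2, MT-CO3, MT-ND3, MT-ND4 and MT-CYB), as is known for mitochondrial mRNAs whose stop codon is completed by the poly-A tail. How reads overlapping 2 genes were counted, and whether the counting used strand, is not given in the sources used here. Without strand, reads from a gene and from its antisense partner cannot be told apart, which touches MT-ND6 and the minus-strand tRNAs in particular.

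Mitochondrial genes took 5.17% of all reads in NCa, 5.15% in NCb and 5.46% in NCc. They took 8.29% in siPrp19a (exact 95% binomial interval 8.28% to 8.31%, counting error only), 5.47% in siPrp19b and 5.49% in siPrp19c. The group means by header were 5.26% ± 0.174 for NC and 6.42% ± 1.63 for siPrp19 (SD, n = 3 each), a difference of 1.16 percentage points. The groups did not overlap, but the intervals of NCc (5.451% to 5.472%) and siPrp19b (5.459% to 5.481%) did. When reads on the mRNAs alone were counted, the groups overlapped (exact p = 0.3). For the share of all mitochondrial genes, an exact permutation test (two-sided) returned p = 0.1. This was the smallest p that 3 libraries against 3 allow, and the adjusted p over the 4 quantities tested was 0.4. Without siPrp19a the difference was 0.219 percentage points. In the 4 libraries it was 1.58 percentage points (exact p = 0.333, the smallest this design allows), with 0.174 without siPrp19a and 2.98 without siPrp19c. As recorded it was 0.946 percentage points (exact p = 0.5), with -0.0453 without siPrp19a and 1.53 without NCb. In these bulk samples, more mitochondria per cell and more RNA per mitochondrion cannot be told apart.

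Of the 37 genes, 34 passed the filter on low values (mean of at least 1 FPKM), while MT-TF, MT-TW and MT-TS1 did not. By header, 0 of the 34 passed an adjusted p of 0.05 with limma, against a background of 7.94% of the 13718 genes tested. At an unadjusted p under 0.05 there were 4 (MT-TG, MT-TI, MT-TS2 and MT-TV), all tRNAs with lower values in siPrp19, against 23.6% of all genes tested. With voom on the recovered reads the count was also 0 of 34, against a background of 9.99%, with 8 at an unadjusted p under 0.05, against 25.9% of all genes tested. In the 4 libraries 0 of 34 passed with limma (background 0.0146%) and 0 with voom (background 1.94%). At an unadjusted p under 0.05 there were 5 and 7, against 12.3% and 14.5% of all genes tested. As recorded 0 of 34 passed with limma (background 0%) and 0 with voom (background 0%). At an unadjusted p under 0.05 there were 3 and 0, against 1.39% and 0.744% of all genes tested.

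Log2 fold changes of the 13 mRNAs, on the log2(FPKM + 1) scale, were above 0 for 12 and below 0 for MT-ND3 by header, with a median of 0.18 beside a median of -0.02 over all genes tested. They ran from -0.24 to 0.36, with adjusted p between 0.42 and 0.984. With voom on the recovered reads the median of the mRNAs was 0.26, beside 0.05 over all genes tested. With quantile normalization the median was 0.02, with 8 of the 13 above 0. MT-CO2 and MT-ND4 were at 0, and MT-CO3, MT-ND4L and MT-ND3 below 0. That method gives each rank a common value, so a gene with the same rank in every library comes out at 0 whatever its level. MT-CO2 and MT-ND4 kept their place among the members in all 6 libraries. A change shared by such high-ranking mRNAs can therefore not be seen in that setting. Without siPrp19a only 3 (MT-ND4L, MT-ND5 and MT-ND6) were above 0 and 10 below, with a median of -0.06. In the 4 libraries the median was 0.26 (12 above 0, range -0.32 to 0.60, adjusted p 0.607 to 0.948) and -0.09 without siPrp19a. As recorded it was 0.15 (12 above 0, range -0.18 to 0.44, each adjusted p = 1) and -0.05 without siPrp19a. On the FPKM scale the direction of most mRNAs thus depended on 1 library in all 3 comparisons. On this scale the same share of reads gave a lower value in the siPrp19 libraries. As a share of all reads, the mRNAs took 4.697%, 4.685% and 4.905% in NCa, NCb and NCc. They took 4.881% in siPrp19b and 4.855% in siPrp19c.

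**Figure D1:**
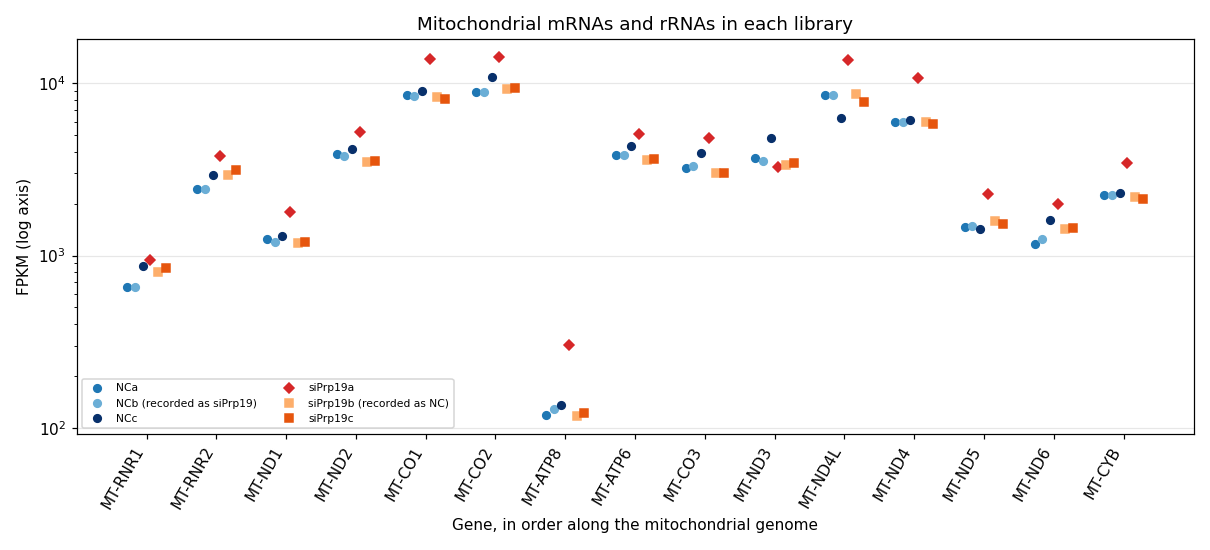
FPKM (log axis) of the 13 mRNAs and 2 rRNAs in genome order, with 1 point per library. Library siPrp19a is the highest of the 6 for 12 of the 13 mRNAs and for both rRNAs, and the lowest for MT-ND3.

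The MT-ND genes encode subunits of complex I (NADH dehydrogenase), which takes electrons from NADH, and they differed in level. MT-ND4L (chrM:10470-10766) was at 8574, 8593 and 6260 FPKM in NCa, NCb and NCc and at 13750, 8634 and 7823 FPKM in siPrp19a, siPrp19b and siPrp19c (log2 fold change by header 0.34 ± 0.30, adjusted p = 0.549; below 0 with quantile normalization). Its lowest value was in NCc, where it made up 3.65% of the mitochondrial mRNA reads, against 5.03% to 5.46% in the other 5 libraries. MT-ND4 (chrM:10760-12137), which shares 7 bases with it, was at 5972, 5979 and 6099 FPKM in the NC libraries and at 10778, 5961 and 5797 FPKM in siPrp19a, siPrp19b and siPrp19c (log2 fold change 0.26 ± 0.28, adjusted p = 0.64). Apart from siPrp19a, MT-ND4 was the steadiest of the mRNAs, with the highest of 5 libraries 1.05 times the lowest, while siPrp19a was 1.77 times the highest of them.

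MT-ND2 (chrM:4470-5511) was at 3869, 3803 and 4158 FPKM in NCa, NCb and NCc and at 5211, 3478 and 3526 FPKM in siPrp19a, siPrp19b and siPrp19c (log2 fold change 0.02 ± 0.21, adjusted p = 0.966). MT-ND1 (chrM:3307-4262) was at 1243, 1196 and 1293 FPKM in the NC libraries and at 1792, 1178 and 1195 FPKM in the siPrp19 libraries (log2 fold change 0.13 ± 0.19, adjusted p = 0.734). In FPKM, siPrp19a was the highest and the other siPrp19 libraries were the lowest of the 6 for both genes. MT-ND5 (chrM:12337-14148) was at 1458, 1481 and 1431 FPKM in the NC libraries and at 2275, 1585 and 1527 FPKM in the siPrp19 libraries (log2 fold change 0.28 ± 0.18, adjusted p = 0.42; 0.10 ± 0.11 without siPrp19a). In FPKM, it was the only 1 of the 34 tested members whose siPrp19 libraries all lay above the NC libraries by header. The same was so for 13.2% of all genes tested. At the same share of reads the FPKM was lower in the siPrp19 libraries, so the count holds for this scale only.

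MT-ND3 (chrM:10059-10404), also of complex I, went the other way. It was at 3665, 3537 and 4818 FPKM in NCa, NCb and NCc and at 3287, 3346 and 3465 FPKM in siPrp19a, siPrp19b and siPrp19c. In FPKM the groups thus did not overlap, but NCc alone lay well above the rest. The log2 fold change was -0.24 ± 0.19 (adjusted p = 0.498) with siPrp19a and -0.22 ± 0.19 without it. In siPrp19a, MT-ND3 made up 1.52% of the mitochondrial mRNA reads, against 2.47% to 3.27% in the other 5 libraries. MT-ND3 and 4 tRNAs were the 5 of 34 tested members with all siPrp19 libraries below the NC libraries by header. The same was so for 18.1% of all genes tested. Both counts are in FPKM, which was lower in the siPrp19 libraries at the same share of reads.

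MT-ND6 (chrM:14149-14673) is the mRNA of complex I that is annotated on the minus strand. It was at 1172, 1241 and 1609 FPKM in NCa, NCb and NCc and at 1984, 1427 and 1454 FPKM in siPrp19a, siPrp19b and siPrp19c (log2 fold change 0.27 ± 0.20, adjusted p = 0.46). Set against the 12 plus-strand mRNAs, there were 1.31, 1.40 and 1.69 MT-ND6 reads per 100 reads in the NC libraries and 1.41, 1.62 and 1.68 in the siPrp19 libraries. The log2 of this ratio was higher in siPrp19 by 0.11 by header (exact p = 0.5), within the spread of both groups (SD 0.189 and 0.133, n = 3 each). It ran from 0.03 without NCa to 0.21 without NCc, with 0.18 without siPrp19a. It differed by 0.05 in the 4 libraries and by -0.04 as recorded (exact p = 1 and 0.9). The ratio in NCc was as high as in siPrp19b and siPrp19c.

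MT-CYB (chrM:14747-15887), cytochrome b of complex III, was at 2237, 2251 and 2311 FPKM in NCa, NCb and NCc and at 3463, 2200 and 2139 FPKM in siPrp19a, siPrp19b and siPrp19c (log2 fold change 0.16 ± 0.22, adjusted p = 0.708). It was steady over the 5 libraries other than siPrp19a, with the highest 1.08 times the lowest. MT-CO2 and MT-CO1 of complex IV, cytochrome c oxidase, had the highest mean levels per length of the 13 mRNAs. MT-CO2 (chrM:7586-8269) was at 8907, 8876 and 10889 FPKM in the NC libraries and at 14264, 9337 and 9405 FPKM in the siPrp19 libraries (log2 fold change 0.18 ± 0.27, adjusted p = 0.738). MT-CO1 (chrM:5904-7445) was at 8546, 8423 and 8976 FPKM in the NC libraries and at 13932, 8366 and 8166 FPKM in the siPrp19 libraries (log2 fold change 0.19 ± 0.28, adjusted p = 0.739). The mean levels of MT-CO2, MT-CO1 and MT-ND4L, the 3 highest, differed by less than their spread over the 6 libraries. MT-CO3 (chrM:9207-9990) was at 3242, 3302 and 3942 FPKM in the NC libraries and at 4797, 2998 and 3003 FPKM in the siPrp19 libraries (log2 fold change 0.01 ± 0.24, adjusted p = 0.984; below 0 with quantile normalization).

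Of the ATP synthase subunits, MT-ATP6 (chrM:8527-9207) was at 3839, 3815 and 4315 FPKM in NCa, NCb and NCc and at 5100, 3580 and 3651 FPKM in siPrp19a, siPrp19b and siPrp19c (log2 fold change 0.03 ± 0.20, adjusted p = 0.956). MT-ATP8 (chrM:8366-8572) had the lowest level of the 13 mRNAs, at 118, 128 and 136 FPKM in the NC libraries and at 303, 118 and 122 FPKM in the siPrp19 libraries (log2 fold change 0.36 ± 0.35, adjusted p = 0.59; -0.09 ± 0.09 without siPrp19a). The 2 genes lie on the same transcript and share the 46 bases printed above, yet in siPrp19a MT-ATP8 was 2.23 times and MT-ATP6 1.18 times the highest of the other 5 libraries. MT-ATP8 rested on 387 to 990 reads per library, against 38309 to 54863 for MT-ATP6.

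**Figure D2:**
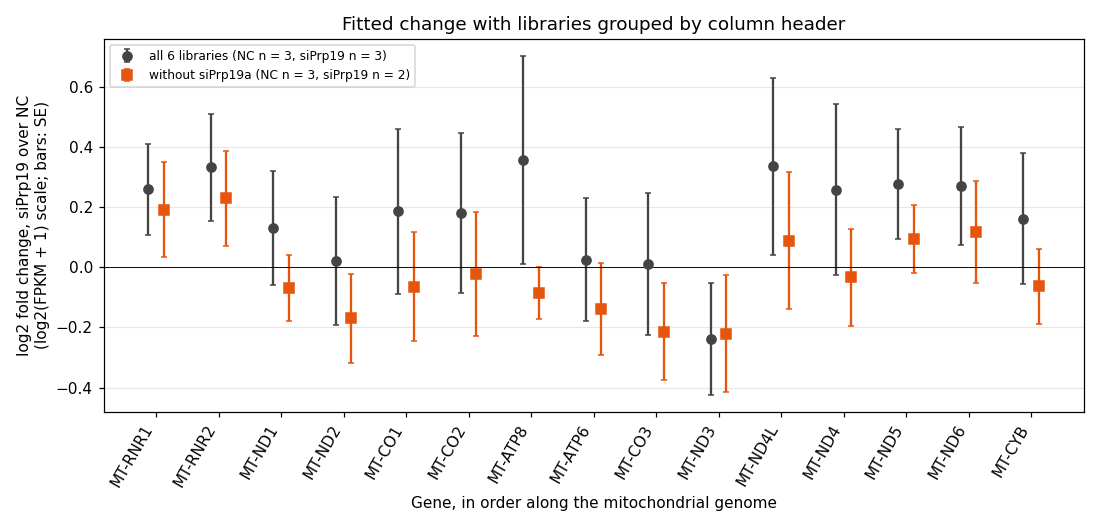
Fitted log2 fold change (siPrp19 over NC, libraries grouped by header, log2(FPKM + 1) scale, bars SE) of the mRNAs and rRNAs in genome order, with all 6 libraries and without siPrp19a. Without siPrp19a, 9 mRNAs move from above to below 0, and both rRNAs stay above 0.

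The ribosomal RNAs were MT-RNR1 (12S, small subunit) and MT-RNR2 (16S, large subunit). MT-RNR1 (chrM:648-1601) was at 657, 657 and 866 FPKM in NCa, NCb and NCc and at 947, 803 and 844 FPKM in siPrp19a, siPrp19b and siPrp19c (log2 fold change 0.26 ± 0.15, adjusted p = 0.359). MT-RNR2 (chrM:1671-3229) was at 2432, 2433 and 2936 FPKM in the NC libraries and at 3762, 2935 and 3143 FPKM in the siPrp19 libraries (log2 fold change 0.33 ± 0.18, adjusted p = 0.313). In FPKM, NCc lay among the siPrp19 libraries for both, for MT-RNR2 only by 2936.2 against 2934.9 in siPrp19b. As a share of all reads, the 2 rRNAs took 0.437%, 0.438% and 0.521% in NCa, NCb and NCc. They took 0.685%, 0.556% and 0.600% in siPrp19a, siPrp19b and siPrp19c, so on this scale NCc lay below the siPrp19 libraries. The difference in this share was not tested. MT-RNR2 had 5.54 to 6.50 times the reads of MT-RNR1, the ratio being lowest in NCc and highest in siPrp19a. Without siPrp19a the log2 fold changes were 0.19 ± 0.16 and 0.23 ± 0.16, and as recorded without siPrp19a they lay close to 0.

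Relative to the mRNAs, rRNA reads did not follow siPrp19a upward. There were 9.30, 9.35 and 10.6 rRNA reads per 100 mRNA reads in NCa, NCb and NCc, 9.04 in siPrp19a, 11.4 in siPrp19b and 12.4 in siPrp19c. The lowest and the 2 highest ratios were thus all in siPrp19 libraries. The log2 ratio was higher in siPrp19 by 0.15 by header (exact p = 0.4, adjusted p = 0.667 over the 4 quantities), by 0.29 without siPrp19a (exact p = 0.2) and by 0.06 without siPrp19c (exact p = 0.7). It differed by 0.09 in the 4 libraries and by -0.04 as recorded (exact p = 1 and 0.9). Whether the library preparation selected poly-A RNA or removed rRNA is not given in the sources used here, so the level of rRNA against mRNA cannot be read as their level in the cells.

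The 22 tRNA genes are 59 to 75 bases long, shorter than the 250 to 300 bp fragments the libraries were selected for, and most had few reads. In each library 12 of the 22 had at most 25 reads, and 3 (MT-TF, MT-TW and MT-TS1) had at most 3. By contrast, MT-TN, MT-TC and MT-TP, the tRNAs for asparagine, cysteine and proline, each had at least 900 reads in every library, and all 3 are annotated on the minus strand. These 3 and MT-TY, MT-TH and MT-TG, the tRNAs for tyrosine, histidine and glycine that stood apart in siPrp19a, are printed here 5′ to 3′ in the gene's own orientation as DNA (GENCODE 29, GRCh38), with a base shared with a neighbouring gene in capitals. MT-TC and MT-TY share 1 base.
MT-TN (chrM:5657-5729, minus strand): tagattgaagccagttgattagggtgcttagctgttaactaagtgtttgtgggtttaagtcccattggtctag
MT-TC (chrM:5761-5826, minus strand): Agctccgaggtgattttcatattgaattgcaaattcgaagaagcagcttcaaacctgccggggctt
MT-TY (chrM:5826-5891, minus strand): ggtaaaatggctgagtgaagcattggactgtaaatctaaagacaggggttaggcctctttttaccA
MT-TP (chrM:15956-16023, minus strand): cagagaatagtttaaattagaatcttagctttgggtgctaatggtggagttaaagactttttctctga
MT-TG (chrM:9991-10058, plus strand): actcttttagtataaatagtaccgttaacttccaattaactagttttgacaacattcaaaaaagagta
MT-TH (chrM:12138-12206, plus strand): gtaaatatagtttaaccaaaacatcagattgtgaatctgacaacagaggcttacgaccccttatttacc

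MT-TN was at 1592, 1561 and 1977 FPKM in NCa, NCb and NCc and at 2099, 1911 and 1902 FPKM in siPrp19a, siPrp19b and siPrp19c. MT-TP was at 1476, 1439 and 1578 FPKM in the NC libraries and at 1895, 1307 and 1161 FPKM in the siPrp19 libraries. MT-TC was at 1085, 950 and 1218 FPKM in the NC libraries and at 1176, 1052 and 1054 FPKM in the siPrp19 libraries. These FPKM lay in the range of the less abundant mRNAs, but they are divided by a length below that of the fragments. In reads the 3 had 925 to 2916 per library, against 387 to 990 for MT-ATP8 and 9605 to 16452 for MT-ND6. The groups overlapped for all 3, with log2 fold changes by header of 0.21 ± 0.15, -0.07 ± 0.20 and 0.02 ± 0.14 (adjusted p = 0.461, 0.864 and 0.955). MT-TN and MT-TC lie beside each other with 31 unannotated bases between them, and MT-TP borders the control region. MT-TF on the other side of the control region, preceded by 576 bases without an annotated gene, had at most 1 read in any library.

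MT-TH had 110, 98 and 129 reads in NCa, NCb and NCc, 6 reads in siPrp19a, and 105 and 119 reads in siPrp19b and siPrp19c. This corresponds to 101, 96.3 and 109 FPKM in the NC libraries and to 5.50, 92.2 and 82.1 FPKM in the siPrp19 libraries. The lowest of the other 5 libraries was 14.9 times siPrp19a. MT-TH lies directly between MT-ND4 and MT-TS2, and MT-ND4 in the same library was the highest of the 6. The log2 fold change by header was -1.48 ± 0.95 (adjusted p = 0.405), and -0.22 ± 0.09 without siPrp19a (adjusted p = 0.209).

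MT-TY had 126, 120 and 132 reads in NCa, NCb and NCc, 14 reads in siPrp19a, and 129 and 155 reads in siPrp19b and siPrp19c. Apart from siPrp19a its level ran from 112 to 123 FPKM, the highest being 1.10 times the lowest, the narrowest of the 16 tRNAs with a value above 0 in all 5. In siPrp19a it was at 13.4 FPKM, so that the lowest of the other libraries was 8.33 times higher, while the neighbouring MT-TC was within the range of the others. The log2 fold change was -1.06 ± 0.76 by header (adjusted p = 0.455) and -0.06 ± 0.07 without siPrp19a (adjusted p = 0.677).

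MT-TG was at 76.2, 68.8 and 89.8 FPKM in NCa, NCb and NCc and at 27.0, 46.3 and 54.6 FPKM in siPrp19a, siPrp19b and siPrp19c. All siPrp19 libraries lay below all NC libraries, siPrp19b and siPrp19c included. By header the log2 fold change was -0.91 ± 0.25 (adjusted p = 0.0745), and it was -0.62 ± 0.14 without siPrp19a (adjusted p = 0.0549). MT-TS2, a serine tRNA, was at 19.3, 20.7 and 27.6 FPKM in the NC libraries and at 6.44, 14.4 and 13.7 FPKM in the siPrp19 libraries (log2 fold change -0.97 ± 0.29, adjusted p = 0.0922; -0.63 ± 0.15 without siPrp19a, adjusted p = 0.0702). MT-TG rested on 29 to 105 reads and MT-TS2 on 6 to 28 reads per library.

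MT-TV, the valine tRNA between the rRNAs, was also lower in every siPrp19 library by header, but it had 5, 8 and 2 reads in NCa, NCb and NCc and 0, 1 and 2 reads in siPrp19a, siPrp19b and siPrp19c. Its log2 fold change was -1.63 ± 0.48 (adjusted p = 0.0905), and it passed without NCc (-2.09, adjusted p = 0.0346; 1354 of 13718 genes over all). MT-TI, the isoleucine tRNA, had 19, 13 and 21 reads in the NC libraries and 10, 17 and 14 reads in the siPrp19 libraries (log2 fold change -0.48 ± 0.20, adjusted p = 0.195). MT-TL1, the leucine tRNA next to MT-RNR2, had 24 to 43 reads with its highest value in siPrp19a (log2 fold change 0.14 ± 0.25, adjusted p = 0.781). The other leucine tRNA, MT-TL2, had 7 reads in siPrp19a and 17 to 46 in the others (log2 fold change -0.70 ± 0.50, adjusted p = 0.452). MT-TR, the arginine tRNA, had 20 to 49 reads with siPrp19a within the range of the others (log2 fold change -0.11 ± 0.24, adjusted p = 0.82). The remaining 7 tested tRNAs (MT-TA, MT-TD, MT-TE, MT-TK, MT-TM, MT-TQ and MT-TT) had at most 24 reads in any library and adjusted p between 0.3 and 0.955 by header.

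By header 6 of the 19 tested tRNAs had a log2 fold change above 0 and 13 below, with a median of -0.48 and none past the threshold. Without siPrp19a the median was -0.14, and MT-TD, the aspartate tRNA with 0 to 5 reads per library, passed (log2 fold change -1.50 ± 0.29, adjusted p = 0.0396; 1033 of 13718 genes over all). In the 4 libraries the median was -0.50, and as recorded it was -0.35. In the 4 libraries 7 tRNAs (MT-TG, MT-TH, MT-TL2, MT-TM, MT-TQ, MT-TS2 and MT-TY) passed when siPrp19c was left out (70 of 13718 genes over all), which leaves siPrp19a as the only siPrp19 library, its spread being assumed to be that of the NC libraries.

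**Figure D3:**
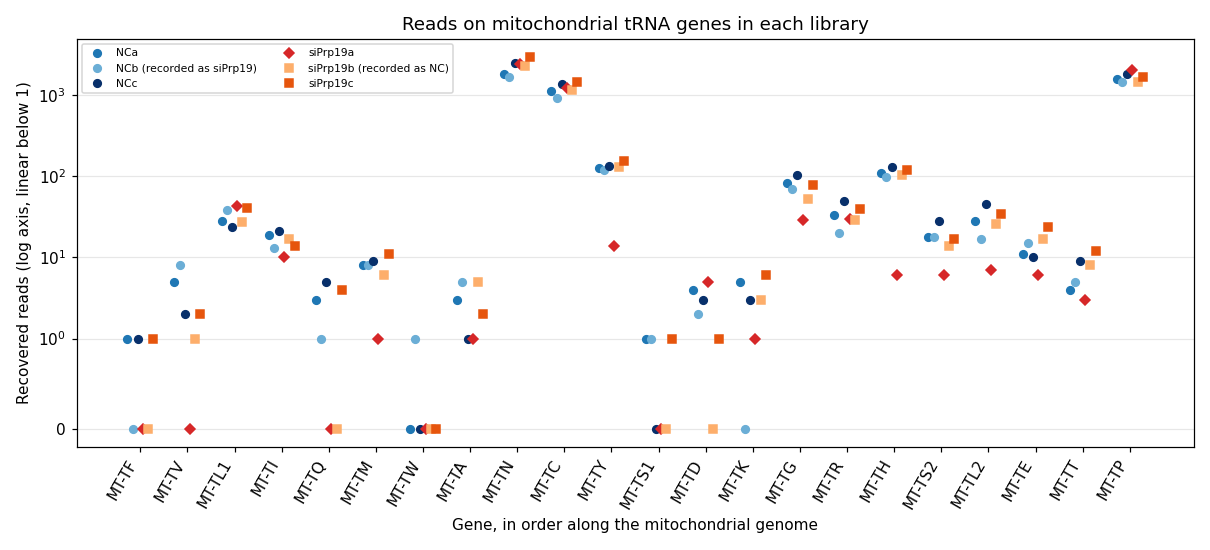
Recovered reads of the 22 tRNA genes in genome order (log axis, linear below 1), with 1 point per library. MT-TN, MT-TC and MT-TP stand above 900 reads in every library, and siPrp19a drops to 14 reads for MT-TY and 6 for MT-TH.

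Summed over the 22 genes, there were 0.671, 0.643 and 0.718 tRNA reads per 100 mRNA reads in NCa, NCb and NCc and 0.494, 0.691 and 0.680 in siPrp19a, siPrp19b and siPrp19c. The log2 ratio was lower in siPrp19 by header (difference -0.14, exact p = 0.7) and differed by 0.02 without siPrp19a and by -0.22 without siPrp19b (exact p = 0.7 and 0.4). It differed by -0.26 in the 4 libraries and by -0.21 as recorded (exact p = 0.667 and 0.2). Without MT-TN, MT-TC, MT-TP and MT-TY the sum was 0.0482, 0.0457 and 0.0508 reads per 100 mRNA reads in the NC libraries, 0.0125 in siPrp19a, and 0.0400 and 0.0420 in siPrp19b and siPrp19c. The 18 less abundant tRNA genes together were thus lowest in siPrp19a.

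**Figure D4:**
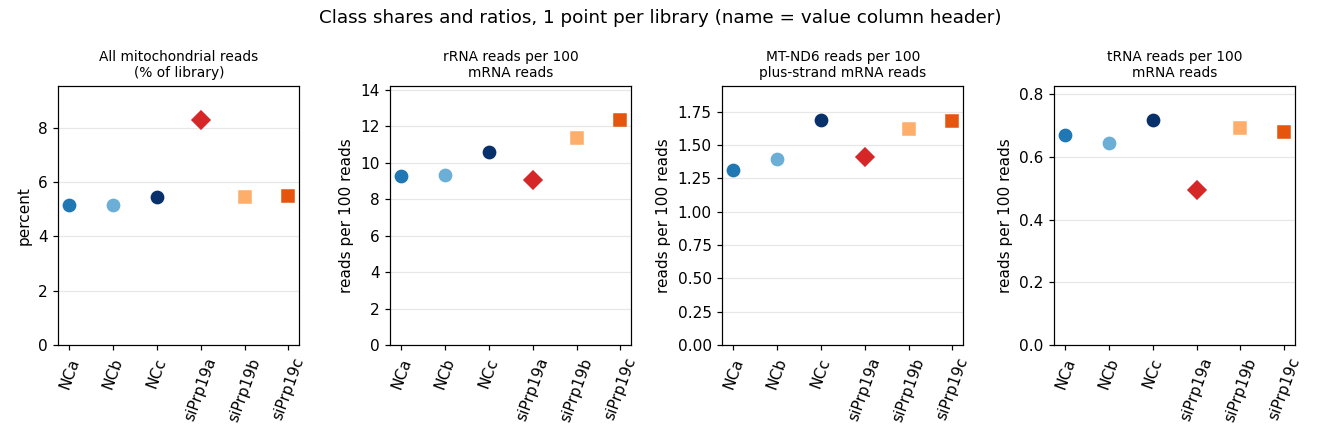
Share of reads on mitochondrial genes and the ratios of rRNA, MT-ND6 and tRNA reads to mRNA reads, with 1 point per library and axes from 0. Library siPrp19a has the highest share (8.29%) and the lowest rRNA and tRNA ratios, and siPrp19b and siPrp19c have the highest rRNA ratios.

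Set against the other 5 libraries, siPrp19a was the highest for 12 of 13 mRNAs, 2 of 2 rRNAs and 4 of 22 tRNAs, and the lowest for MT-ND3 and 10 tRNAs. Over all genes tested it was the highest for 21.4% and the lowest for 24.6%. The same library also stood apart in *RN7SL2*, a short cytoplasmic RNA made without a poly-A tail, at 11.6 FPKM (55 reads) against 184 to 400 FPKM (875 to 2493 reads) in the others. The rest of the listed small RNAs without a poly-A tail, among them *RN7SL1*, *RN7SK* and *RMRP*, had at most 5 reads in any library. Replication-dependent histone genes, whose usual transcripts also lack a poly-A tail, were at 318 RPM (reads scaled to the library total) in siPrp19a and at 252 to 321 in the others. Whether these reads came from transcripts without a tail was not tested. Nuclear genes shorter than 100 bases were at 129.5 RPM in siPrp19a and at 119 to 139 in the others. Whether the low *RN7SL2* level goes with the mitochondrial values of this library was not tested.

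**Figure D5:**
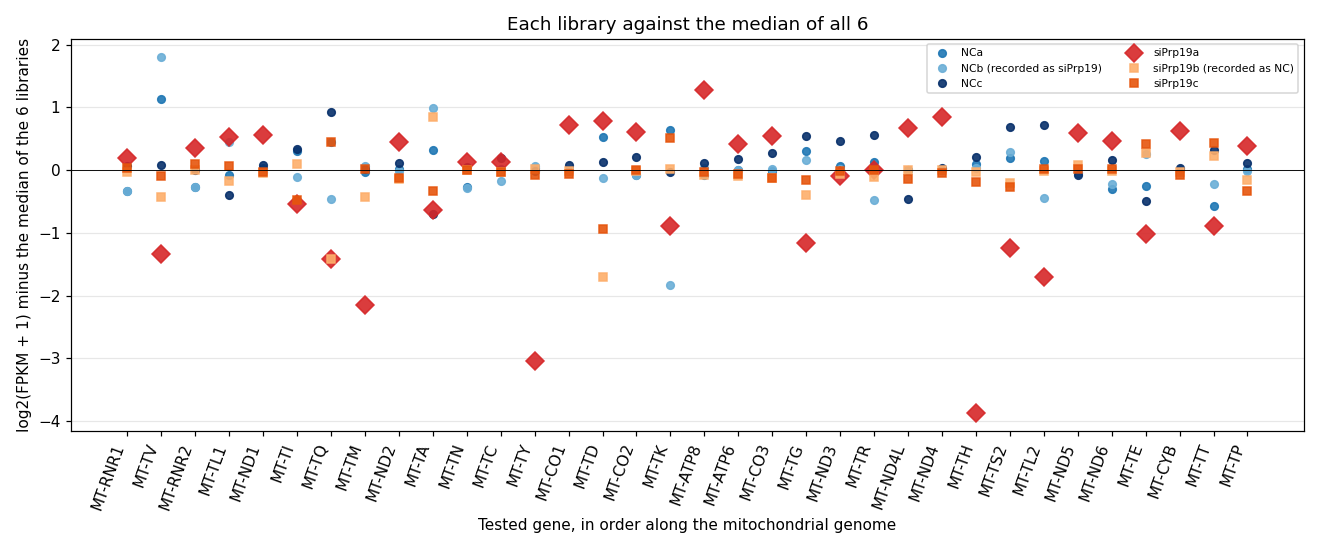
For each tested member in genome order, log2(FPKM + 1) of each library minus the median of the 6 libraries. Library siPrp19a lies above 0 for 12 mRNAs and both rRNAs and far below 0 for MT-TH, MT-TY and MT-TM, while most points of the other libraries for mRNAs lie near 0.

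Copies of mitochondrial genes in the nuclear genome can take up reads of their sources, and 365 such genes were listed. The 4 with the most reads were *MTND2P28*, *MTATP6P1* and *MTCO1P12*, which lie together on chromosome 1 (chr1:629640-634376, GRCh38), and *MTRNR2L8* on chromosome 11. *MTATP6P1* was at 255, 266 and 305 FPKM in NCa, NCb and NCc and at 580, 234 and 258 FPKM in siPrp19a, siPrp19b and siPrp19c, so it was highest in siPrp19a as were MT-ATP6 and MT-ATP8. *MTND2P28* was at 353 to 501 FPKM with the highest value in siPrp19a, *MTCO1P12* at 22.4 to 28.6 FPKM, and *MTRNR2L8* at 0.233 to 0.824 FPKM (5 to 18 reads). How reads matching several places were treated is not given in the sources used here, so reads of near-identical copies and of the mitochondrial genes cannot be told apart.

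The nuclear genes that express the mitochondrial genome were examined as a list of 47, all of which were tested. By header 4 were lower in siPrp19 and 0 higher with limma. This was near the background of 7.94% of all genes tested (736 lower and 353 higher of 13718). The median log2 fold change of the list was 0.00, 23 of the 47 being below 0. In the 4 libraries and as recorded, 0 passed in either direction (background 0.0146% and 0%), with a median of -0.04 in both. The 4 have roles in translation, replication, transcription and RNA turnover, and 1 each was among 11 translation factors, 7 genes of replication and the nucleoid, 9 of transcription and 16 of messenger stability, while 0 of 4 genes of transcript cleavage passed.

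*GFM2*, a factor that recycles mitochondrial ribosomes, was at 16.6, 17.5 and 16.5 FPKM in NCa, NCb and NCc and at 12.3, 10.6 and 10.7 FPKM in siPrp19a, siPrp19b and siPrp19c (log2 fold change -0.55 ± 0.08, adjusted p = 0.00963). *TWNK*, the helicase of mitochondrial DNA replication, was at 24.8, 26.8 and 27.0 FPKM in the NC libraries and at 16.8, 19.8 and 19.7 FPKM in the siPrp19 libraries (log2 fold change -0.47 ± 0.09, adjusted p = 0.022). *TFAM*, which packages mitochondrial DNA and starts its transcription, was at 13.97, 13.2 and 13.3 FPKM in the NC libraries and at 10.5, 10.9 and 10.8 FPKM in the siPrp19 libraries (log2 fold change -0.31 ± 0.06, adjusted p = 0.0283). *PDE12*, a phosphodiesterase that shortens poly-A tails in mitochondria, was at 4.37, 4.37 and 3.86 FPKM in the NC libraries and at 3.30, 2.99 and 2.95 FPKM in the siPrp19 libraries (log2 fold change -0.35 ± 0.08, adjusted p = 0.0453). For all 4 genes every siPrp19 library lay below every NC library, as for 18.1% of all genes tested.

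Each of the 4 calls was lost when certain single libraries other than siPrp19a were left out. That of *GFM2* was lost without NCa, siPrp19b or siPrp19c (adjusted p up to 0.0541), and those of *TWNK*, *TFAM* and *PDE12* without NCa, NCb, siPrp19b or siPrp19c (adjusted p up to 0.0938, 0.136 and 0.169), with the direction kept. Calls over all 13718 genes fell as well, from 1089 to 264 without NCa, 335 without NCb, 270 without siPrp19b and 253 without siPrp19c. Without siPrp19a there were 1033. Scaling each library to the same FPKM sum also ended the calls of *TWNK*, *TFAM* and *PDE12* (adjusted p = 0.0773, 0.149 and 0.136), beside 679 calls over all genes. *POLRMT*, the mitochondrial RNA polymerase, was at 10.7, 10.2 and 12.3 FPKM in NCa, NCb and NCc and at 12.3, 13.8 and 12.9 FPKM in siPrp19a, siPrp19b and siPrp19c (log2 fold change 0.22 ± 0.09, adjusted p = 0.186). *LRPPRC*, which stabilizes mitochondrial mRNAs, was at 24.9, 25.9 and 23.2 FPKM in the NC libraries and at 24.5, 21.4 and 21.4 FPKM in the siPrp19 libraries (log2 fold change -0.13 ± 0.08, adjusted p = 0.383). Neither passed the threshold in any of the 3 comparisons. *POLRMT* passed by header when libraries were scaled to the same FPKM sum over nuclear genes (log2 fold change 0.32, adjusted p = 0.043), beside 932 of 13718 genes over all.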

How the data were processed

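RNA was isolated as total RNA with TRIzol, and the NEBNext Ultra kit was used for library preparation. The authors deposited 1 table per library with FPKM values, and tested their counts with DESeq2. The submitters' processing notes name HISAT2 2.0.5, featureCounts 1.5.0-p3 and hg38. Strandedness, annotation release and the treatment of reads that match several places or genes are not given in the sources used here. The 58735 identifiers were matched to GENCODE 29 (GRCh38), which gave coordinates, strand and transcript sequences. FPKM times the merged exon length was a whole multiple of 1 constant for 100% of values (tolerance 0.02), which gave the reads.

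Members and lists were chosen with earlier results of these data known. All 37 mitochondrial genes are accounted for. The text names every mRNA and rRNA, the tested tRNAs, nuclear factors past the threshold (with *POLRMT*, *TFAM* and *LRPPRC*), the 4 nuclear copies with the most reads and *PRPF19*.

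Groups came from the header of the value column, which equals a sample's description, and from the sample a table is recorded under, as 3 comparisons. Genes with a mean of at least 1 FPKM were fitted as log2(FPKM + 1) with limma 3.58.1 (R 4.3.3, mean-variance trend, Benjamini-Hochberg adjustment over 13718 genes, threshold 0.05). A fold change on this scale understates the change of low genes. Shares and log2 ratios of reads were compared by two-sided exact permutation tests (scipy 1.17.1), adjusted over 4 quantities. Intervals cover counting error only, since reads are not independent molecules. The fit was tested on simulated data. As alternatives, the fits were repeated with a pseudocount of 0.1, no filter, quantile normalization, the same FPKM sum over all or over nuclear genes, no trend, voom on recovered reads, a replicate block, other denominators or FPKM for the ratios, and leaving out each library.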

Additional observations from a re-analysis of the deposited data

How the results depend on the processing

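Of 549 recomputed values, 482 were scored as the same as reported. For single genes this meant the same call and no opposite sign, and for shares and ratios no opposite sign. For medians of the mRNAs it meant no opposite sign and a move smaller than the SD within groups. For counts of members past the threshold it meant an equal count. A value of 0 was not scored as an opposite sign. With the replicate number as a block, 2 members passed by header, MT-TG (-0.91, adjusted p = 0.0439) and MT-TS2 (-0.97, adjusted p = 0.0358), beside 928 of 13718 genes over all, and 0 as recorded. The numbers were not taken as pairs, since same-numbered libraries correlated at 0.134, -0.049 and 0.204 by header and at 0.386, -0.174 and 0.318 as recorded. The block also moved the adjusted p of *TFAM* to 0.0637 and of *PDE12* to 0.063. No paired analysis was made of the 4 libraries. Quantile normalization by header put MT-CO3 (-0.0274) and MT-ND4L (-0.0378) below 0 and MT-CO2 and MT-ND4 at 0. It fixes a gene of constant rank at 0, so it cannot show a change shared by the high-ranking mRNAs. The same FPKM sum over nuclear genes moved the median of all genes in the 4 libraries from -0.02 to 0.10 and that of the mRNAs to 0.40. Apart from values that rank fixes at 0, the cause of these changes was not tested.

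Leaving out each library moved the number of members past the threshold from 0 to 1 by header and from 0 to 7 in the 4 libraries. It moved the median log2 fold change of the mRNAs from -0.0648 to 0.28 by header, -0.0853 to 0.53 in the 4 libraries and -0.0503 to 0.28 as recorded. By header it moved MT-ATP6 from -0.14 to 0.12, MT-ATP8 from -0.086 to 0.59, MT-CO1 from -0.0648 to 0.32, MT-CO2 from -0.0217 to 0.28, MT-CO3 from -0.21 to 0.12, MT-CYB from -0.0629 to 0.28, MT-ND1 from -0.0676 to 0.23, MT-ND2 from -0.17 to 0.12 and MT-ND4 from -0.0334 to 0.41. It moved the difference in mitochondrial share from -0.0453 to 1.53 percentage points as recorded. The difference in the log2 rRNA ratio ran from 0.06 to 0.29 by header, -0.14 to 0.31 in the 4 libraries and -0.18 to 0.0475 as recorded, that in the MT-ND6 ratio from 0.03 to 0.21, -0.13 to 0.23 and -0.15 to 0.031, and that in the tRNA ratio by header from -0.22 to 0.019. With 3 libraries against 3 the exact tests cannot go below 0.1, so they cannot show stability, and the effect of depth on tRNAs with few reads was not tested.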
